A study of Mus musculus with 20 samples.

Results

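The genes described here are 8 of the 17211 genes listed for the mouse brain: *Hmgcs1*, *Idi1*, *Fdft1*, *Sqle*, *Lss* and *Cyp51*, which encode enzymes of cholesterol synthesis, and *Insig1* and *Srebf2*, which encode regulators of the pathway. They were taken by gene name, all 8 were found, and none was lost to a filter on low values. No uptake receptor is among them, so the genes of cholesterol uptake come from a separate list. RNA was measured by sequencing in whole brains from *Winnie* mice, a line with a mutated *Muc2* (the main mucin of the colon) in which colitis arises without any agent, and from C57BL/6 mice, all aged 14 weeks and with no treatment named. Each genotype had 10 brains, of which the labels call 5 female and 5 male, and each library is taken as the brain of 1 mouse. The mutation is carried by every cell of a *Winnie* mouse, the brain included.

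Cholesterol cannot cross from the blood into the brain in useful amounts, and brain cells make their own, in large part for myelin and for the membranes of neurons and astrocytes. Synthesis starts from acetyl-CoA, runs through mevalonate to the isoprenoid units, joins these to squalene, and then closes and trims the sterol rings. The transcription factor SREBP2, the product of *Srebf2*, switches on nearly all enzymes of the pathway when sterols in the endoplasmic reticulum are low. When sterols are plentiful, INSIG1 holds SREBP2 and its escort SCAP in the endoplasmic reticulum, and *Insig1* is itself a target of SREBP2.

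Values are CPM, the reads of a gene scaled to a common total over the listed genes, and each sample held 16540303 to 23923769 reads. At this depth *Hmgcs1* had 4162 to 7143 reads per brain, *Lss* had 546 to 869, and *Idi1*, the lowest of the 8, had 117 to 220. Genotypes were compared with limma on log2(CPM + 0.5) across all genes, FDR is the Benjamini-Hochberg adjusted p, and a gene is called a DEG at an FDR under 0.05. Permutation tests on mean CPM are two-sided with 100000 resamples. The sex labels could not be relied on, since *Xist* and *Ddx3y* went against the label in 9 of 10 C57BL/6 samples and in 0 of 10 *Winnie* samples, and no sample was regrouped. *Muc2* is not among the listed genes, so it gave no check of the genotype labels. Library numbers run through all C57BL/6 samples before the *Winnie* samples, so library order and genotype cannot be told apart. In a whole brain, fewer cells of a type and less RNA per cell cannot be told apart either.

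Upstream sequences are shown for *Hmgcs1*, *Lss* and *Insig1* because *Hmgcs1* and *Lss* differed most between the genotypes, in opposite directions, and *Insig1* was the gene that *Lss* followed most closely from brain to brain. RefSeq promoter windows (GRCm38.p6) matched 6 of the 8 genes, the others being *Sqle* and *Fdft1*. Each sequence is given 5′ to 3′ on the strand of the gene. Those of *Lss* and *Insig1* stop at the base before the annotated gene start, and that of *Hmgcs1* is the whole window and ends upstream of it. Capitals mark the sterol element (TCACNCCAC) and the CCAAT box, which is read as ATTGG when it lies on the other strand.

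*Hmgcs1*, chr13:119690101-119690350, plus strand: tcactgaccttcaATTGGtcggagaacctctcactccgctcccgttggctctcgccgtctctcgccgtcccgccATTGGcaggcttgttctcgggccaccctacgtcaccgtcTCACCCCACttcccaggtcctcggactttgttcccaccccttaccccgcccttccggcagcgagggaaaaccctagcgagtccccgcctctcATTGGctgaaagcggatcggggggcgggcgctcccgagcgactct

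*Lss*, chr10:76531355-76531587, plus strand: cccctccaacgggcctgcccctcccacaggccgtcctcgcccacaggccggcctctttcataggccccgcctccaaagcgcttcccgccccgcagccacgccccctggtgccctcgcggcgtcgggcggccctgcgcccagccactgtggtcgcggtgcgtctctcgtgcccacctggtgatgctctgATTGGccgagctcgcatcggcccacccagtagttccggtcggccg

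*Insig1*, chr5:28071162-28071362, plus strand: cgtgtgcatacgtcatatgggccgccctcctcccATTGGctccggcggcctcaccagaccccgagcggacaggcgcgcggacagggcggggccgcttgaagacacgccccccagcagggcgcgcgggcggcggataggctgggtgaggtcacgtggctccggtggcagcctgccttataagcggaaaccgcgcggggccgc

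Both strands of the 250 bases before each RefSeq start were searched, and none of the motifs contains another. An exact match to the sterol element TCACNCCAC was found in *Hmgcs1* alone among the 6 genes, at bases -137 to -129 from its start. It was found in 1.05% of 32851 windows of the same length. Other spellings of the element were not searched for, so the other windows may hold sterol elements that this pattern misses. CCAAT boxes were in all 6 windows, against 33.8% of all windows, but those of *Idi1* and *Cyp51* lie past the annotated gene start. GC boxes (GGGCGG) were also in all 6, against 32.7%, and that of *Idi1* lies past the annotated gene start too. The E-box CACGTG was in *Insig1* alone of the 6, against 6.02%. Of the genes printed, *Hmgcs1* had 3 CCAAT boxes, while *Lss* and *Insig1* had 1 each. These are letter matches in a fixed window, not measured binding.

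None of the 8 genes was a DEG between *Winnie* and C57BL/6 brains by limma, while 2.52% of all genes were (1.52% higher and 1.01% lower in *Winnie* brains). The 2 groups overlapped in all 8, as in nearly all genes, with 0.0291% not overlapping. The stricter cut-off of the study (FDR under 0.001 and a fold change of at least 1.5) was applied here to the limma fit on all 20 samples. There 0 of the 17211 genes passed it, since the smallest FDR of any gene was 0.00108. The study used edgeR on 8 C57BL/6 and 6 *Winnie* mice, so its own test was not repeated by this count. At an unadjusted p under 0.05 there were 2 of the 8, *Lss* (higher in *Winnie* brains) and *Hmgcs1* (lower), against 17.6% of all genes. On the recovered reads edgeR, DESeq2 and limma-voom each called 1 of the 8, *Lss*, and 514, 977 and 524 of the 17211 genes, against 434 by limma. The log2 fold change was negative in 6 of the 8 genes (7 with median-ratio scaling or quantile normalization, where *Srebf2* turned negative) and their median was -0.023, beside 0.0022 over all genes, of which 49.0% were negative. For all 8 genes the 95% interval lay inside a 1.5-fold change in both directions, as it did for 97.9% of all genes. For 6 of the 8, the exceptions being *Lss* and *Idi1*, it lay inside a 1.2-fold change, as for 65.0% of all genes.

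**Figure D1:**
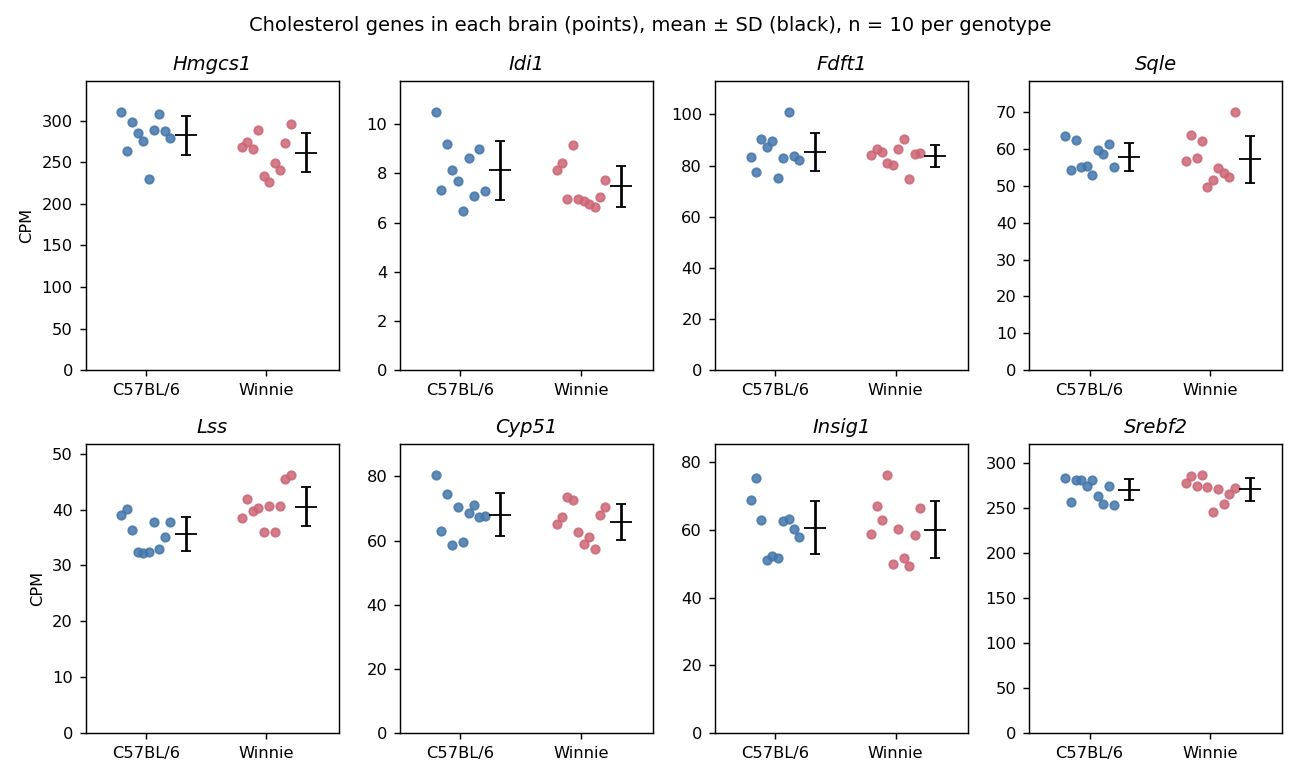
CPM of each of the 8 genes in each brain (points, 10 per genotype, each panel with its own axis from 0), with the mean and SD in black. *Lss* sits higher in *Winnie* brains, with all 10 above the C57BL/6 median, *Hmgcs1* sits lower in 8 of 10, and the points of the other 6 genes cover much the same range in both genotypes.

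Before squalene, both enzymes measured had lower means in *Winnie* brains, and neither difference passed the test. *Hmgcs1* (chr13:119690379-119708260, GRCm38), the cytosolic HMG-CoA synthase at the head of the mevalonate pathway, ranged from 230 to 310 CPM in C57BL/6 brains with a median of 286, and from 226 to 296 CPM in *Winnie* brains with a median of 267. The groups overlapped over most of this range, with 3 C57BL/6 brains above every *Winnie* brain and 1 *Winnie* brain below every C57BL/6 brain. The means were 282 ± 23.3 CPM in C57BL/6 and 261 ± 23.4 CPM in *Winnie* brains (SD, n = 10 each). The log2 fold change was -0.11 with a standard error of 0.0513 and a 95% interval from -0.22 to -0.01, and the FDR was 0.249. On mean CPM the permutation test gave p = 0.0608. The interval corresponds to changes of -14% to -0.488%.

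*Idi1* (chr13:8885501-8892451), the isomerase that interconverts the isoprenoid building blocks, ranged from 6.46 to 10.5 CPM in C57BL/6 brains (median 7.91) and from 6.64 to 9.17 CPM in *Winnie* brains (median 7.0). The highest value was that of C57BL/6 replicate 1, and 7 of 10 *Winnie* brains lay below the C57BL/6 median. The log2 fold change was -0.11 ± 0.0768 (SE) with an interval from -0.27 to 0.05 and an FDR of 0.486, that is from -16.8% to 3.37%, where counting alone gives a coefficient of variation (CV) of 8.19%. *Idi1* has a close paralogue, *Idi2*, beside it in the genome, and how reads that fit several copies were counted is not given in the sources used here.

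From squalene onwards, *Fdft1* and *Sqle* differed by less than the spread between brains. *Fdft1* (chr14:63145150-63179578), squalene synthase and the first step committed to sterols, had a median of 83.5 CPM in C57BL/6 brains (75.0 to 101) and 84.7 CPM in *Winnie* brains (74.6 to 90.5). It had a log2 fold change of -0.02 with an interval from -0.11 to 0.07 (FDR = 0.842), although 7 of 10 *Winnie* brains lay above the C57BL/6 median. The mean and the median thus point in opposite directions, and the C57BL/6 mean is raised by replicate 8 at 101 CPM. *Sqle* (chr15:59315077-59331192), squalene epoxidase, had a median of 57.1 CPM in C57BL/6 (53.0 to 63.6) and 55.8 CPM in *Winnie* brains (49.7 to 70.0). The *Winnie* range was the wider and enclosed the C57BL/6 range, with 3 *Winnie* brains below it and 2 above, and the CV was 11.1% in *Winnie* and 6.51% in C57BL/6 brains. The difference in spread was not tested. *Sqle* had a log2 fold change of -0.02 with an interval from -0.13 to 0.08 (FDR = 0.873).

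*Lss* (chr10:76531588-76557138), lanosterol synthase, which closes the sterol rings, was the only one of the 8 genes with all 10 *Winnie* brains above the C57BL/6 median. In C57BL/6 brains it ranged from 32.2 to 40.1 CPM with a median of 35.7, and in *Winnie* brains from 36.0 to 46.3 CPM with a median of 40.5. The ranges overlapped, but 6 *Winnie* brains were above the highest C57BL/6 brain and 5 C57BL/6 brains were below the lowest *Winnie* brain. At least 9 of 10 *Winnie* brains lay above the C57BL/6 median in 11.5% of all genes. Means were 40.5 ± 3.44 CPM in *Winnie* and 35.6 ± 2.99 CPM in C57BL/6 brains (SD, n = 10 each). *Lss* had a log2 fold change of 0.18 ± 0.0517 (SE) with an interval from 0.08 to 0.29, an increase of 13.6% (5.57% to 22.2%). Its unadjusted p was 0.0013 and its permutation p on mean CPM was 0.00308. The FDR of 0.0504 lies just outside the threshold, with *Lss* at rank 441 by p and 434 genes called. Across 32 other ways of processing, *Lss* was called in 12, with log2 fold changes from 0.12 to 0.20 in all of them and FDR values from 0.0102 to 0.137. Leaving out C57BL/6 replicate 1, 2, 7 or 10 or *Winnie* replicate 5 or 7 brought the FDR to between 0.0287 and 0.0489.

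The *Lss* difference was smaller after a correction that took out exon length and GC content together. *Lss* has 10787 bases of annotated exon, the longest of the 8 genes, and across 15106 genes the log2 fold change correlated with log2 exon length (Pearson's r = 0.283, across genes, which are not independent replicates). After a correction for exon length and GC content, which was chosen after the data were seen, the *Lss* log2 fold change was 0.12 with an FDR of 0.137. An antisense gene, 4930483K19Rik, overlaps *Lss* by 11268 bases of gene span, introns included, and is not among the listed genes. Genes on the other strand also overlap the spans of others of the 8, among them *Hmgcs1* (Gm48342, 6190 bases) and *Fdft1* (*Ctsb*, 774 bases, mean 590 CPM). Whether the counting used strand is not given in the sources used here.

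*Cyp51* (chr5:4081145-4104746), the demethylase that acts on lanosterol directly after *Lss*, did not follow *Lss*. It had a median of 68.1 CPM in C57BL/6 brains (58.6 to 80.5) and 66.3 CPM in *Winnie* brains (57.2 to 73.7), with a log2 fold change of -0.05, an interval from -0.16 to 0.06 and an FDR of 0.697. The 2 highest values were those of C57BL/6 brains and the lowest that of a *Winnie* brain. Read within each brain, the ratio of *Lss* to *Hmgcs1* was 0.156 ± 0.0128 in *Winnie* and 0.127 ± 0.0135 in C57BL/6 brains, ranging from 0.140 to 0.180 and from 0.107 to 0.152. All 10 *Winnie* ratios were above the C57BL/6 median and 8 C57BL/6 ratios were below the lowest *Winnie* ratio. The mean ratios of *Lss* to the other 6 genes were 1.14 to 1.23 times those of C57BL/6 brains. These ratios were formed after the values of *Lss* were seen and are given with no test.

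**Figure D2:**
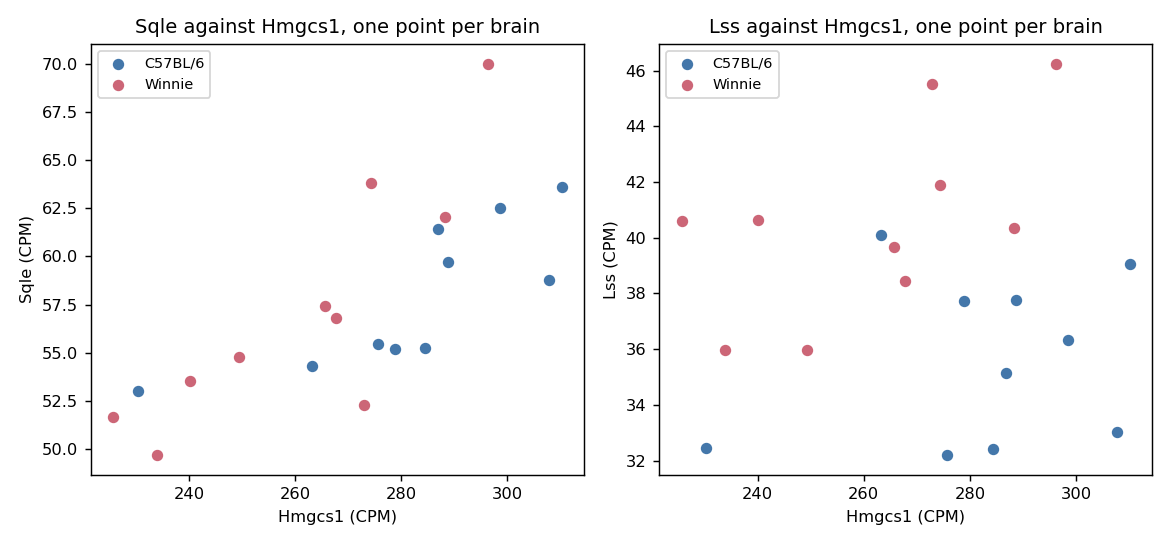
CPM of *Sqle* (left) and of *Lss* (right) against CPM of *Hmgcs1*, with a point for each of the 20 brains and axes that do not start at 0. *Sqle* rises with *Hmgcs1* along a shared band in both genotypes, whereas at a like level of *Hmgcs1* most *Winnie* brains lie above the C57BL/6 brains in *Lss*.

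Of the regulators, *Srebf2* (chr15:82147181-82205379) was the most closely matched between genotypes, at 271 ± 12.1 CPM in C57BL/6 and 271 ± 12.8 CPM in *Winnie* brains. Its values ran from 254 to 284 CPM and from 246 to 287 CPM, and its CV of 4.46% and 4.73% was the smallest of the 8 genes. *Srebf2* had a log2 fold change of 0.00 with an interval from -0.07 to 0.07 (FDR = 0.989), which leaves room for a change of -4.61% to 5.06% in the mRNA. The activity of SREBP2 is set by cleavage of the protein and was not measured. *Insig1* (chr5:28071363-28078662) varied far more from brain to brain, from 51.2 to 75.4 CPM in C57BL/6 (median 61.5) and from 49.3 to 76.3 CPM in *Winnie* brains (median 59.5). Its CV was 12.8% in C57BL/6 and 14.2% in *Winnie* brains, where counting alone gives 2.95%. Its log2 fold change was -0.02 with a wider interval, from -0.18 to 0.15 (FDR = 0.948).

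Per kilobase of exon, *Hmgcs1* was the highest of the 8 at 59.2 ± 5.48 CPM per kb (SD over 20 brains), followed by *Srebf2* at 37.7 ± 1.69. *Fdft1* at 20 ± 1.4 and *Insig1* at 19.5 ± 2.57 came next and did not differ beyond their spread. Below them stood *Cyp51* at 15.2 ± 1.39, *Sqle* at 10.4 ± 0.919, *Lss* at 3.53 ± 0.373 and *Idi1* at 2.22 ± 0.305. The low place of *Lss* depends on its exon length, which adds up all annotated transcripts.

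Of the 8 genes, *Hmgcs1*, *Sqle*, *Cyp51*, *Idi1* and *Insig1* varied together from brain to brain, and all 10 pairs among them passed the test by r (9 by rho). With the genotype means removed, Pearson's r over the 20 brains was above 0 in 25 of the 28 pairs, with a median of 0.43 and a range from -0.23 to 0.80. After Benjamini-Hochberg adjustment over the 28 pairs, 12 passed by r and 11 by Spearman's rho (permutation tests). Over all pairs of the 11876 genes with a mean of at least 5 CPM in both genotypes the median r was 0.05, and 10.5% of those pairs had an r above 0.43. The median was 0.38 within C57BL/6 and 0.56 within *Winnie* brains, and 22 of the 28 pairs were above 0 in both. All genes of a brain share its library and its scaling, and with median-ratio scaling the median r was 0.34.

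**Figure D3:**
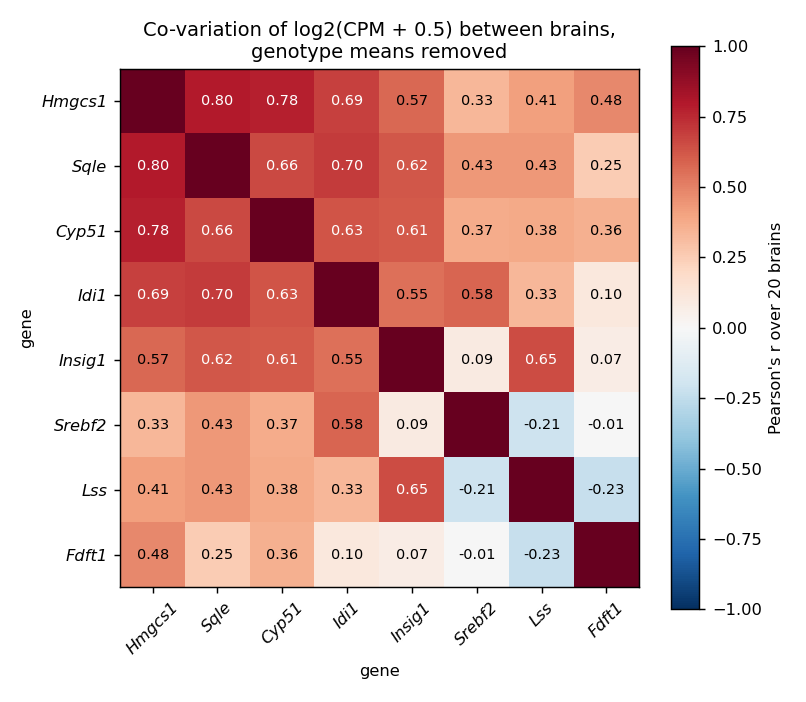
Pearson's r between log2(CPM + 0.5) of each pair of the 8 genes over 20 brains, after removing the genotype means, on a colour scale from -1 to 1. The block of *Hmgcs1*, *Sqle*, *Cyp51*, *Idi1* and *Insig1* holds values from 0.55 to 0.80, while *Fdft1*, *Srebf2* and *Lss* have mostly lower values and the 3 negative ones lie among their own pairs.

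The strongest pair was *Hmgcs1* with *Sqle* (r = 0.80, rho = 0.85, adjusted permutation p = 0.00042 and 0.00028), and r was 0.79 within C57BL/6 and 0.83 within *Winnie* brains. Without the 2 brains farthest from the median of *Hmgcs1* it was 0.82. *Hmgcs1* with *Cyp51* followed (r = 0.78, rho = 0.81, adjusted permutation p = 0.00042 and 0.00056, and r = 0.72 without the 2 brains farthest out). *Srebf2*, whose product drives the others, passed with *Idi1* alone (r = 0.58, rho = 0.65, adjusted permutation p = 0.0223 and 0.00846, and r = 0.46 without the 2 brains farthest out). With *Insig1* its r was 0.09. *Fdft1* passed with none of the other genes. *Lss* had a median r of 0.38 over its 7 pairs and passed with *Insig1* alone (r = 0.65, rho = 0.57, adjusted permutation p = 0.00943 and 0.0265), where r was 0.83 within C57BL/6 and 0.49 within *Winnie* brains and 0.56 without the 2 brains farthest out. With *Fdft1* its r was -0.23 and with *Srebf2* -0.21.

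**Figure D4:**
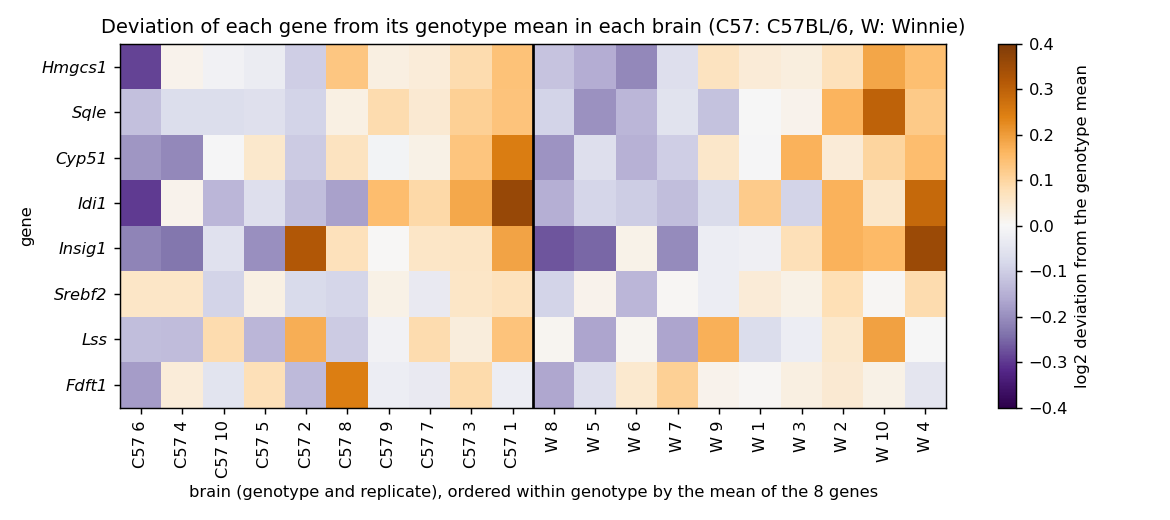
Log2 deviation of each gene (rows) from its genotype mean in each brain (columns, C57BL/6 left of the black line and *Winnie* right of it, ordered within each genotype by the mean of the 8 genes). C57BL/6 replicate 6 is low in all rows but *Srebf2*, and C57BL/6 replicate 3 and *Winnie* replicates 2 and 10 are above the genotype mean in all 8.

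The brains at the ends of this shared variation came from both genotypes. The mean deviation of the 8 genes was highest in C57BL/6 replicate 1 (0.16 on the log2 scale), *Winnie* replicate 4 (0.14) and *Winnie* replicate 10 (0.13). It was lowest in C57BL/6 replicate 6 (-0.17), *Winnie* replicate 8 (-0.13) and *Winnie* replicate 5 (-0.12). *Sqle* read 70.0 CPM in *Winnie* replicate 10 and 49.7 CPM in *Winnie* replicate 5. *Insig1* read 76.3 CPM in *Winnie* replicate 4 and 49.3 CPM in *Winnie* replicate 8. The summed level of 12 oligodendrocyte markers, whose cells make myelin, was 7564, 8213 and 8437 CPM in the 3 highest brains and 7897, 7550 and 7640 CPM in the 3 lowest, in the order named. Its part in the shared variation was not tested.

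Genes outside the 8 were ranked by their correlation with the mean of the 8 genes over the 20 brains, genotype means removed, among 11968 genes with a mean of at least 5 CPM over all 20 brains. The highest was *Hsd17b7* (r = 0.89), a sterol ketoreductase of cholesterol synthesis. *Stard4*, a carrier of cholesterol within cells (r = 0.81), and *Mvd*, mevalonate diphosphate decarboxylase (r = 0.78), were also in the first 10. The first 10 also held *Eml1*, *Pogk*, *Tdrd7*, *Rnf144b*, *Fam126a* and *Crnkl1*, with r from 0.78 to 0.81. Of the first 50 genes, 18% belonged to the pathway lists, against 0.56% of all ranked genes, and 5 of the 14 ranked synthesis genes outside the 8 were among them. These genes were picked as the highest of many, so no p is given, and *Hsd17b7* and *Mvd* had FDR values of 0.979 and 0.548 between the genotypes. *Ebp*, described next, did not take part (r = -0.02).

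Across the wider pathway, 3 of 72 list genes outside the 8 were DEGs by limma (4.17%, against 2.52% of all genes), *Abca2* higher and *Ebp* and *Nr1h2* lower in *Winnie* brains. At an unadjusted p under 0.05 there were 15 (20.8%), 8 higher and 7 lower, and the median log2 fold change was 0.02. *Ebp*, the sterol isomerase late in cholesterol synthesis, ranged from 14.7 to 19 CPM in C57BL/6 brains (median 17.2) and from 13.2 to 16 CPM in *Winnie* brains (median 14.8). All 10 *Winnie* brains were below the C57BL/6 median, 5 of them below every C57BL/6 brain, and 8 C57BL/6 brains were above every *Winnie* brain. The log2 fold change was -0.21 ± 0.0526 (SE, FDR = 0.0284). Without C57BL/6 replicate 3 or 5 or *Winnie* replicate 7 or 8 its FDR was 0.0545 to 0.0677, and with the correction for exon length and GC content it was 0.0668.

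*Ebp* was the only one of the other 15 synthesis genes that passed the test, and 9 of the 15 had negative log2 fold changes, with a median of -0.01. *Fdps*, which makes farnesyl diphosphate and has pseudogene copies that may share its reads, had 3.81 ± 0.826 CPM in *Winnie* and 4.37 ± 0.534 CPM in C57BL/6 brains (log2 fold change -0.19, FDR = 0.295).

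**Figure D5:**
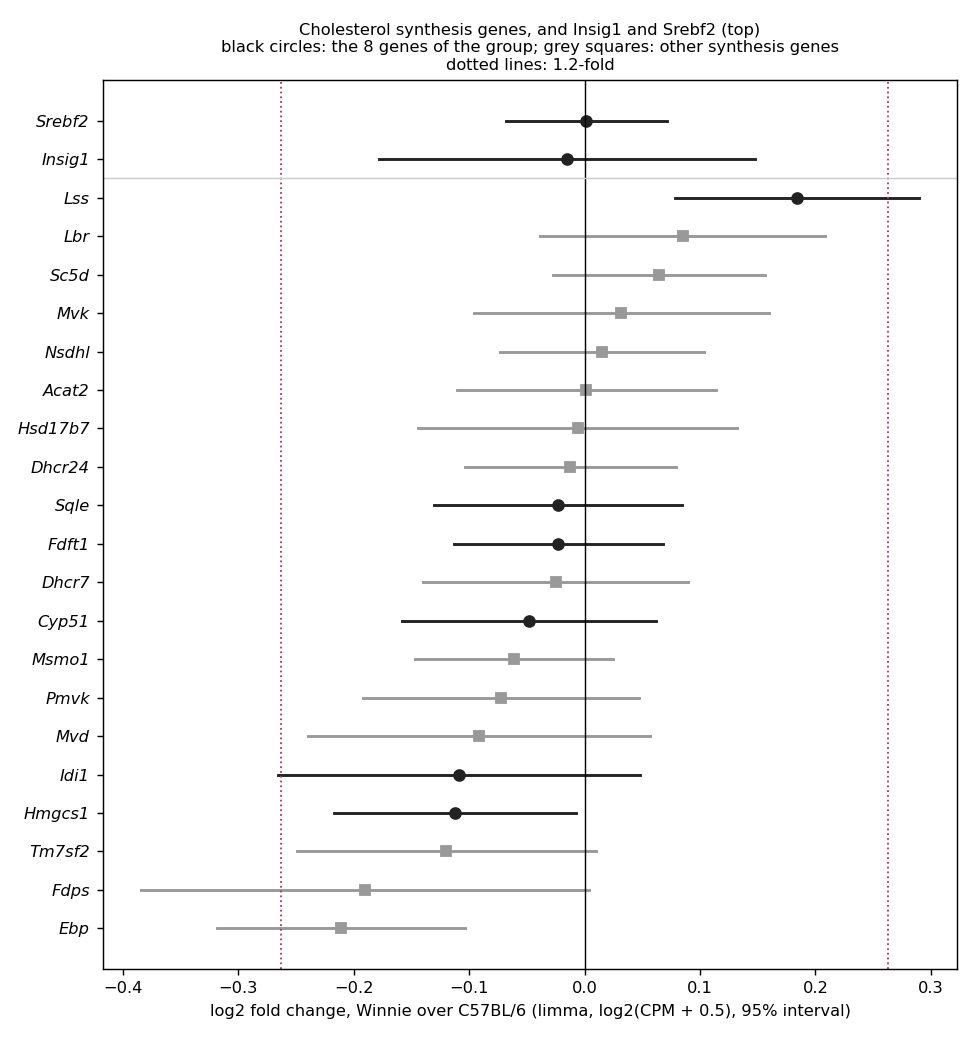
Log2 fold change of *Winnie* over C57BL/6 brains with its 95% interval (limma, n = 10 per genotype) for *Srebf2* and *Insig1* at the top and synthesis genes below, ordered by value, with dotted lines at a 1.2-fold change. *Lss* at 0.18 is the highest and *Ebp* at -0.21 the lowest, and most other intervals cross 0.

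Of the 9 other genes of SREBP regulation that were measured, 0 passed FDR in limma, with 3 at an unadjusted p under 0.05 (17.6% of all genes) and a median log2 fold change of 0.06. *Mbtps1*, the protease that makes the first cut in SREBP, had a log2 fold change of 0.13 (FDR = 0.0559) and was above the C57BL/6 median in 10 of 10 *Winnie* brains. It was called without C57BL/6 replicate 2 or 7 or *Winnie* replicate 1 (FDR from 0.0281 to 0.0473). It was also called with a mean CPM of at least 1, median-ratio scaling, limma-voom, edgeR and DESeq2 (FDR from 0.00982 to 0.04998). With the correction for exon length and GC content its log2 fold change was 0.07 (FDR = 0.348). *Srebf1*, which drives fatty acid synthesis, was at 70.1 ± 7.03 against 63.8 ± 6.57 CPM (0.13, FDR = 0.216). *Fbxw7*, part of a ubiquitin ligase that removes active SREBP, had a log2 fold change of -0.13 (FDR = 0.108).

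Among the 15 genes of cholesterol uptake and delivery, 0 passed FDR in limma, 3 were at an unadjusted p under 0.05 (17.6% of all genes) and the median log2 fold change was 0.02. *Lrp1*, a large receptor for apolipoprotein E particles, had a log2 fold change of 0.15 (FDR = 0.0589), and *Npc2*, which carries cholesterol out of lysosomes, one of -0.13 (FDR = 0.0757). *Lrp1* was called with DESeq2 (FDR = 0.0306) and without C57BL/6 replicate 1 or 10 or *Winnie* replicate 1 (FDR from 0.0170 to 0.0493). With the correction for exon length and GC content its log2 fold change was 0.07 (FDR = 0.229). After the same correction *Npc2* was called (-0.15, FDR = 0.0251). *Npc2* was also called with median-ratio scaling, quantile normalization, limma-voom, edgeR and DESeq2 (FDR from 0.0127 to 0.0474), but in 0 of the 20 fits that left out a brain.

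In the list of cholesterol export, esterification and turnover, 2 of 13 genes passed FDR in limma (2.52% of all genes). At an unadjusted p under 0.05 (17.6% of all genes), 2 were higher and 2 lower. The median log2 fold change of the list was 0.02. *Abca2*, a lipid transporter abundant in oligodendrocytes, ranged from 335 to 419 CPM in C57BL/6 and from 385 to 459 CPM in *Winnie* brains, with 5 *Winnie* brains above every C57BL/6 brain. Its log2 fold change was 0.16 ± 0.0389 (SE, FDR = 0.0226). Without C57BL/6 replicate 5 or *Winnie* replicate 3 the FDR was 0.0571 and 0.0508, and with the correction for exon length and GC content it was 0.0768. *Nr1h2*, which encodes the sterol-sensing nuclear receptor LXR beta, ranged from 46.1 to 56.6 CPM in C57BL/6 and from 46.6 to 50.5 CPM in *Winnie* brains. All 10 *Winnie* brains were below the C57BL/6 median, and 9 C57BL/6 brains were above every *Winnie* brain. Its log2 fold change was -0.14 ± 0.0376 (SE, FDR = 0.0390), and it lost its call in 11 of the 20 fits that left out a brain, namely without C57BL/6 replicate 3, 5, 6, 8 or 9 or *Winnie* replicate 2, 3, 4, 7, 8 or 10, with FDR values up to 0.0779. It also lost its call with the correction for exon length and GC content (FDR = 0.0501), as did *Ebp* and *Abca2*.

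In the neighbouring branches, 0 of 11 genes of fatty acid synthesis and 0 of 9 genes of the isoprenoid branches passed FDR in limma, with 3 and 1 at an unadjusted p under 0.05 (17.6% of all genes) and medians of 0.04 and 0.02. *Fasn*, fatty acid synthase, had a log2 fold change of 0.13 (FDR = 0.0868), which was 0.07 with the correction for exon length and GC content (FDR = 0.332), and *Fads2*, a desaturase, one of 0.11 (FDR = 0.154). *Nus1*, of dolichol synthesis, had -0.10 (FDR = 0.111) and *Fnta*, a farnesyltransferase subunit, -0.10 (FDR = 0.389).

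Markers of the cell types of a brain were read beside these genes. Of 77 marker genes, 4 were DEGs by limma (5.19%, against 2.52% of all genes), and the median log2 fold change was -0.05, with 26 genes (33.8%, against 17.6% of all genes) at an unadjusted p under 0.05, of which 18 were lower and 8 higher. Of the 12 oligodendrocyte markers 0 passed, with 4 at an unadjusted p under 0.05, and 10 were negative, while their summed level ran from 7084 to 8437 CPM in *Winnie* and from 7055 to 8922 CPM in C57BL/6 brains. The lowest p of that list was that of *Ugt8a* (log2 fold change -0.21, FDR = 0.0899). Among the 8 markers of oligodendrocyte precursors, *Olig2* fell (log2 fold change -0.30, FDR = 0.0209) and *Pdgfra*, named after its values were seen, rose (0.20, FDR = 0.0330). In that list 6 of 8 were negative, 4 lower and 1 higher at an unadjusted p under 0.05, with a median of -0.12. Astrocyte markers summed to 4315 to 5034 CPM in *Winnie* and 4189 to 4985 CPM in C57BL/6 brains, with 0 of 10 called. At an unadjusted p under 0.05 there were 5 of them, 3 lower and 2 higher, the latter including *Fgfr3* (0.20, FDR = 0.0866). Of the 10 astrocyte markers 5 were positive and 5 negative, with a median of -0.004. Neuron markers summed to 7814 to 8415 CPM and 7661 to 8424 CPM, with 0 of 10 called and *Map2* alone under an unadjusted p of 0.05 (0.07, FDR = 0.276). Of the neuron markers 5 were positive and 5 negative, with a median of -0.01. Microglia markers summed to 296 to 383 CPM and 324 to 360 CPM, with 8 of 9 negative, 0 called and 4 at an unadjusted p under 0.05, among them *Trem2* (-0.19, FDR = 0.119). *Cldn5* of endothelium fell (-0.47, FDR = 0.00331) while the endothelium list had a median of 0.05, and *Aebp1* of fibroblasts rose (0.29, FDR = 0.0112). In the endothelium list 6 were positive and 2 negative, with 2 higher and 1 lower at an unadjusted p under 0.05. In the fibroblast list 5 were positive and 2 negative, with 1 higher and 1 lower at an unadjusted p under 0.05 and a median of 0.08. Of choroid plexus markers 0 of 8 and of erythroid markers 0 of 5 were called, each with 1 at an unadjusted p under 0.05, *Kcne2* (-0.40, FDR = 0.0993) and *Hba-a2* (-0.69, FDR = 0.195). The part of these markers in the values of *Lss* and of the other cholesterol genes was not tested.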

How the data were processed

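Brain RNA was extracted with Trizol and Qiagen kits and sequenced by the authors from polyA libraries on an MGISEQ-2000RS, with reads counted per gene by featureCounts on GRCm38. The authors deposited CPM. The aligner, the strand setting and the filter on low counts are not given in the sources used here. All 20 samples were used by genotype label, whereas the study's methods name 8 C57BL/6 and 6 *Winnie* mice. Reads were recovered from the CPM steps, with 99.988% or more of values whole in each sample (tolerance 0.00051 CPM). The fit was limma 3.58.1 (trend, robust) in R 4.3.3 on log2(CPM + 0.5), with no covariate. Alternatives were pseudocounts of 0.1 and 1, a mean CPM of at least 1, median-ratio scaling, quantile normalization, *Ddx3y* or labelled sex as covariate, the replicate number as a block and leaving out each sample. Recovered reads were also tested with limma-voom, edgeR 4.0.16 and DESeq2 1.42.0, which called 524, 514 and 977 genes. A spline correction for exon length and GC content was added after seeing the data. Permutations used scipy 1.17.1, numpy 2.4.6, pandas 2.3.3 and Python 3.11.15. Exons, positions and overlaps came from GENCODE M21, which matched 17128 of 17211 genes.

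In simulated data with 200 of 17211 genes changed, limma found 60.0% of genes changed 1.2-fold (2 false calls) and 98.5% of those changed 1.5-fold (10 false calls) in the comparison of *Winnie* against C57BL/6, the changed genes being drawn from those with at least 5 CPM. All changes were upward in *Winnie*, and each gene was simulated separately. Variation shared between genes, which the real brains show, was thus left out, and the false calls hold for the simulated setting only. The 8 genes, the pathway and marker lists and the tests were chosen with earlier results of these data known. Beyond the 8, the text names *Srebf1*, list genes with an FDR under 0.05, the 2 pathway genes with the smallest p in each list, the marker with the smallest p in each list, and the 10 genes nearest to the mean of the 8. Some genes that this rule also takes are not reported here by name, but stay in the counts. *Ufd1* of the SREBP regulation list was not analysed here. Pairs of samples within a genotype differed by more than counting noise, with chi-square per degree of freedom of 2.60 to 30.0. The labels do not give litters or cages, and p-values measure only the spread between these samples. Counting variation covers counting error only.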

Additional observations from a re-analysis of the deposited data

How the results depend on the processing

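Of the 8 genes, *Lss* was the only one called under any of the 32 alternatives, so the count rose from 0 to 1 with a mean CPM of at least 1, median-ratio scaling, quantile normalization, limma-voom, edgeR and DESeq2, and lay between 0 and 1 when each sample was left out. The count of pathway genes outside the 8 moved from 3 to 5 with median-ratio scaling, limma-voom and edgeR, to 9 with DESeq2 and to 1 with the length and GC correction, and lay between 0 and 5 with a sample left out, with 0 without C57BL/6 replicate 5. Marker genes called moved from 4 to 9 with DESeq2 and lay between 3 and 7 with a sample left out, 7 being without C57BL/6 replicate 2. The cause of these moves was not tested. Over all genes, 434 were called, 977 with DESeq2, 307 with the length and GC correction, and 169 (without C57BL/6 replicate 5) to 694 (without C57BL/6 replicate 10) with a sample left out. The other settings on all 20 samples that called *Lss* also called more genes over all. These were 481 with a mean CPM of at least 1, 518 with median-ratio scaling, 534 with quantile normalization, 524 with limma-voom and 514 with edgeR. The fits with a sample left out that called *Lss* went both ways. Without C57BL/6 replicate 1, 2 or 10 they called 562, 498 and 694 genes. Without C57BL/6 replicate 7 or *Winnie* replicate 5 or 7 they called fewer genes than the main fit, 411, 419 and 256.

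With a single sample left out, *Fgfr3* (without C57BL/6 replicate 2, FDR = 0.0238), *Ugt8a* and *Kcne2* (without *Winnie* replicate 4, FDR = 0.0307 and 0.0419) and *Fasn* and *Fbxw7* (without *Winnie* replicate 6, FDR = 0.0442 and 0.0469) were also called by limma. DESeq2 on all 20 samples, which called 977 genes over all, also called *Nus1* (FDR = 0.0255), *Fgfr3* (0.0313), *Fasn* (0.0324), *Fbxw7* (0.0460) and *Ugt8a* (0.0489).

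Directions changed for 4 of the genes named. *Srebf2* read -0.0016 with median-ratio scaling, -0.0034 with quantile normalization, -0.0023 with DESeq2 and -0.0356 with the length and GC correction, and -0.0084 to 0.0169 with a sample left out. *Insig1* ran from -0.0548 to 0.0204 and *Fdft1* from -0.0427 to 0.0045 with a sample left out. With the length and GC correction *Map2* read -0.0014 (0.0727 without it, FDR = 0.276) and *Sqle* -0.0443.

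Samples of the genotypes share numbers by title only, and the deviations of same-numbered samples correlated at -0.43 to 0.27, above 0.1 for 1 of 10 numbers, so the numbers do not pair the samples. With the replicate number as a block, 227 genes were called over all, 1 pathway gene outside the 8 and 0 of the 8, and *Ebp* had an FDR of 0.0508 and *Nr1h2* of 0.0681. At the mean reads of all 20 brains, counting alone gives a CV of 5.73% for *Ebp*, 3.21% for *Nr1h2* and 8.19% for *Idi1*. In *Winnie* brains the CV observed was 5.71%, 2.69% and 11.4%, and in C57BL/6 brains it was 8.74%, 6.05% and 14.9%, in the same order.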
